A study of Mus musculus with 6 samples.

Results

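The genes described here are 39 genes of the G2 phase and of mitosis, chosen by gene symbol from a list of cyclins, mitotic kinases, kinetochore and spindle proteins, cytokinesis proteins and their regulators. They are 39 of the 27198 genes in the table of RNA counts, every one of them protein-coding. All of them were listed and all passed the filter on low counts that 16520 genes passed. Expression was compared between hematopoietic stem cells (HSCs) of control (Ctrl) mice and of mice given ferulic acid long term (l-FA).

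A cell that has copied its DNA passes through G2 and enters mitosis when CDK1, bound to A-type and B-type cyclins, is switched on by CDC25 phosphatases. Mitotic kinases then build the spindle and attach it to the kinetochores, the checkpoint holds anaphase back until attachment is complete, and the anaphase-promoting complex (APC/C) with CDC20 marks cyclin B for destruction. The genes of this program are transcribed late in the cycle, largely through the MuvB complex with B-MYB and FOXM1. Most HSCs of an adult mouse are quiescent and carry little of this program, whereas progenitors cycle often.

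The mice were wild-type male C57BL/6 animals of 8 to 10 weeks. The l-FA mice received ferulic acid (FA), a phenolic acid of plants, intraperitoneally at 50 mg/kg once a day for 30 days, and Ctrl mice received solvent. HSCs were sorted from bone marrow as Lineage- Sca-1+ c-Kit+ Flk2- CD34- cells, and 3 libraries per group were made from amplified cDNA with no irradiation or other treatment in either group. The number of mice behind each library is not stated, so p-values below measure the spread between these libraries, which may be technical.

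Total counts ranged from 19287735 to 20380610 in Ctrl and from 19505689 to 20376031 in l-FA. Over all genes the median chi-square of a pair from the same group was 0.883 to 1.08, where sampling noise is expected to give 0.455, and between groups it was 8.2 to 8.84. Over the 39 genes it was 0.842 to 3.9 within a group and 20 to 29.4 between groups. Over immunoglobulin V genes it was 0.362 to 0.545 within a group and 13.8 to 17 between groups. For a change of a given size this chi-square grows with the count. Its values are therefore not compared between these sets of genes, which differ in depth. Markers were also uneven. RNA of Cd34, at 1343 CPM (a count scaled to library size with TMM factors) in Ctrl and 1579 in l-FA, and of Flt3, which encodes Flk2, at 759 and 1183 CPM, was abundant although the sort was for cells negative for both proteins. The HSC marker Kit had 1067 and 1157 CPM, Procr 32.9 and 40.6, and Slamf1 2.14 and 7.97. Of 10 granulocyte and monocyte progenitor markers, 9 were lower in l-FA past 2-fold at an edgeR adjusted p under 0.05. Of all genes tested 5.10% were so. The other marker had a log2 fold change of 0.41 and did not pass. Their summed level was 23630 to 24370 CPM in the Ctrl libraries and 6001 to 6294 in the l-FA libraries, with Mpo the highest at 18544 and 4939 CPM, and no marker was at 0 in every library. All 6 mature neutrophil markers were lower too, at a summed 47.7 ± 3.73 CPM against 16.4 ± 0.503 (SD, n = 3). At an edgeR adjusted p under 0.05, 25.5% of all genes tested were higher and 25.0% lower. At that threshold 7 of 10 HSC markers were higher and 1 was lower (log2 fold change -0.31). Of 9 erythroid and megakaryocyte markers 4 were higher. Of 3 multipotent progenitor markers 2 were higher and 1 was lower (log2 fold change -0.15). Of 5 lymphoid markers tested 1 was higher and 1 lower.

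The promoters of these genes carry a shared pair of short motifs that the choice of genes did not use. The cell cycle genes homology region (CHR), searched as TTTGAA or TTCGAA on both strands, is an element bound by MuvB complexes, and the CCAAT box (CCAAT, both strands) is bound by NF-Y. RefSeq windows on GRCm38.p6, from 250 bases before to 50 after the annotated start, were found for 31 of the 39 genes, and the first listed window of a gene was used. A CHR was present in 25 of the 31 (80.6%), against 14.6% of the 10598 tested genes with a window and 19.4% of all 27025 genes with one. A CCAAT box was present in 24 (77.4%), against 39% and 37.9%. Both were present in 22 (71%), against 6.33% and 7.7%. In 26 of the 31 windows, bases after the start lay in a GENCODE M21 transcript of the gene, and in those of Aurka, Kif11, Kif23, Kif2c and Mybl2 they did not. A match is a description of letters, not of binding, and a missing one says only that the letters are not in that window.

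The windows below run from 100 bases before to 30 after the start, 130 bases each, on the strand of the gene, with CHR and CCAAT letters in capitals. They are shown as examples of the pair in genes that were higher in l-FA and in genes that were lower, and were not picked by a rule. In the full windows the number of CCAAT boxes varied within each direction. It ran from 5 in Hmmr to 0 in Anln among higher genes, and from 6 in Ube2c to 0 in Nuf2 among lower ones. Ccnb2 (chr9:70421525-70421654, minus strand), Kif23 (chr9:61946770-61946899, minus), Racgap1 (chr15:99651627-99651756, minus) and Prc1 (chr7:80294351-80294480, plus) were higher. Bub1 (chr2:127831830-127831959, minus), Cdca8 (chr4:124936888-124937017, minus), Cdc20 (chr4:118437314-118437443, minus) and Ube2c (chr2:164769829-164769958, plus) were lower. In Cdca8 the CHR and the last CCAAT box share 1 base.
Ccnb2: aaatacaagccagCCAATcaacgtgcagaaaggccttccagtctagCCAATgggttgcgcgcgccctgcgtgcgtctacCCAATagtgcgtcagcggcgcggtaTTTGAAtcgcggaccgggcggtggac
Kif23: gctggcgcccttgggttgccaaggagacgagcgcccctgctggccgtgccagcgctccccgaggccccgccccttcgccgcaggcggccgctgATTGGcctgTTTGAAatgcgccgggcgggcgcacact
Racgap1: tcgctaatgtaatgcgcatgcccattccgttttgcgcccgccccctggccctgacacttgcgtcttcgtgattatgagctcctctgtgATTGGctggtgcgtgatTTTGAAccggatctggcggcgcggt
Prc1: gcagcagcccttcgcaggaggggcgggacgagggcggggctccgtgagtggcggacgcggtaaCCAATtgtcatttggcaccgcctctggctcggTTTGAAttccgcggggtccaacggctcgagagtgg
Bub1: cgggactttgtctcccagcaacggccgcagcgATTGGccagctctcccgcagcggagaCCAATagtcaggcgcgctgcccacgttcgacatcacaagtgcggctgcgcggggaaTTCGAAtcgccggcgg
Cdca8: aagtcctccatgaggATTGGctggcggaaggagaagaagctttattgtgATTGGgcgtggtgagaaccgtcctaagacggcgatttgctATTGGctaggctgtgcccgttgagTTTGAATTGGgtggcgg
Cdc20: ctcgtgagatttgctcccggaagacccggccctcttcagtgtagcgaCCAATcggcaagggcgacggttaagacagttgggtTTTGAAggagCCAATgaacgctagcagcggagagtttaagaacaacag
Ube2c: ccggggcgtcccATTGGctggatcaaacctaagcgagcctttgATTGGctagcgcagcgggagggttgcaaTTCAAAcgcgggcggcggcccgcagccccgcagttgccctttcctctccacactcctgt

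Of the genes with a window, 9 of the 11 that were higher in l-FA carried a CHR (81.8%), as did 10 of the 12 that were lower (83.3%) and 6 of the 8 that did not pass (75%). Both elements were found in 7 of 11, 9 of 12 and 6 of 8. A window with 2 or more CCAAT boxes was found for 3 of the 11 (27.3%), 7 of the 12 (58.3%) and 6 of the 8 (75%), against 15.2% of tested genes with a window. These differences between calls were not tested. Ndc80 had a CHR without a CCAAT box, and Nuf2, its partner in the outer kinetochore, had neither in its window.

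The program was well expressed in both groups. On the FPKM scale, which is per gene length, the mean level over the 6 libraries ran from 2.71 for Foxm1 to 171 for Cdc20. The median of the 39 genes was 20.9 FPKM against 3.996 for all genes tested, 37 were above the median gene and 28 were above the upper quartile. The lowest count of a member in any library was 319, so no value below rests on a handful of reads. Cdc20 (176 FPKM in Ctrl, 167 in l-FA), Ccnb2 (144 and 172), Bub1b (68.2 and 57.9) and Top2a (66.2 and 73.6) were among the highest.

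The genes moved by small amounts and in both directions. By edgeR's quasi-likelihood test with Benjamini-Hochberg adjustment over all genes tested, 11 of the 39 were higher in l-FA at an adjusted p under 0.05, 16 were lower and 12 did not pass. Over all genes tested the shares were 25.5% higher and 25.0% lower. None of the 39 passed 2-fold in either direction, where 6.68% of tested genes did so higher and 5.10% lower. The largest called differences were a fall of 0.50 on the log2 scale for Nuf2 and a rise of 0.39 for Ndc80. The l-FA libraries lay above all Ctrl libraries for 13 of the genes and below them for 17, against 30.4% and 29.9% of all genes tested.

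These genes are deeply counted, and their numbers are set beside genes above a floor on counts, which are not matched to them in depth. Among the 7648 tested genes with at least the mean count of the lowest member, 493, 25.3% were higher and 32.8% lower, and 1.67% passed 2-fold. The median absolute log2 fold change was 0.208 there and 0.175 for the 39 genes. The standard errors of the 39 genes ran from 0.0228 to 0.375 with a median of 0.0444, against a median of 0.0502 among the 7648. Called changes of the 39 were as small as 0.11 in size.

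**Figure D1:**
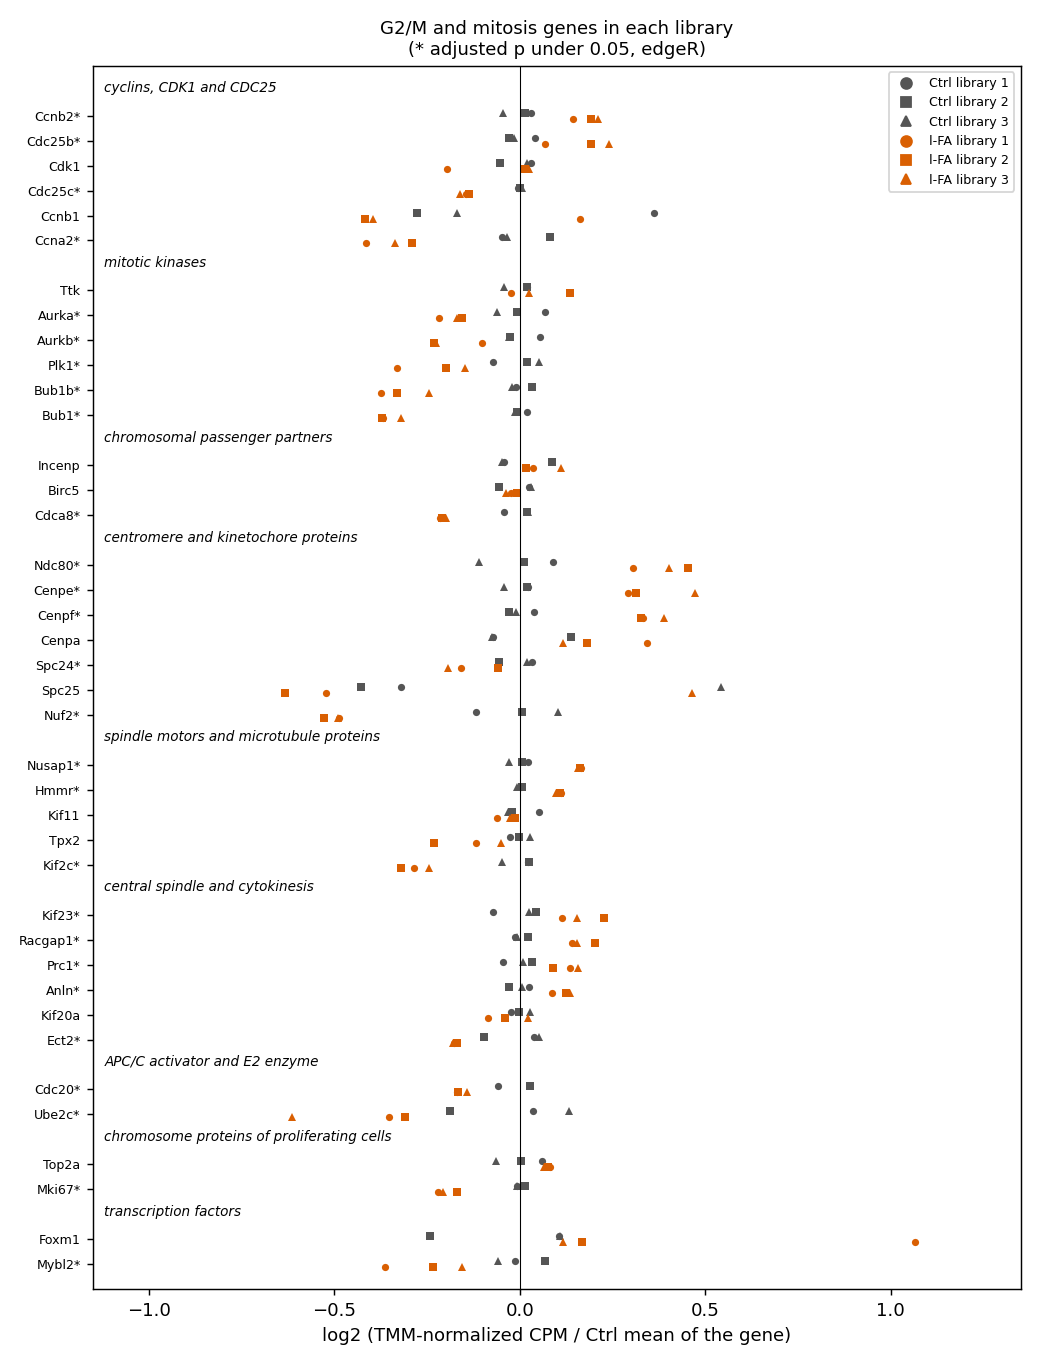
The level of each of the 39 genes in each of the 6 libraries, as log2 of TMM-normalized CPM over the gene's Ctrl mean, ordered by role, with grey for Ctrl, orange for l-FA and the marker shape for the library number. Most points lie within 0.5 of the Ctrl mean, orange points stand to the right for 11 called genes and to the left for 16, and Ccnb1, Spc25 and Foxm1 have 1 library of a group far from the others.

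The split between directions depended on the scaling of the libraries. With total counts alone in place of TMM, 14 of the 39 genes were higher and 9 lower. Over all genes tested, the shares on that scale were 31.2% higher and 19.4% lower. The median over all genes tested moved up by 0.0785, and the median of the 39 went from -0.05 to 0.03. No called gene changed sign under any alternative run. The summed level of the 39 genes was 7120, 7068 and 7058 TMM-normalized CPM in Ctrl and 6747, 6763 and 6864 in l-FA. As a share of all counts it was 0.691%, 0.684% and 0.690% in Ctrl and 0.695%, 0.693% and 0.703% in l-FA. The l-FA libraries were thus the lower ones on the first scale and the higher ones on the second. The rises and falls of single genes relative to each other do not rest on this choice. In bulk RNA, fewer cycling cells and less RNA per cycling cell cannot be told apart.

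Among cyclins and their activators, Ccna2 and Ccnb2 went in opposite directions. Ccna2 (ENSMUSG00000027715; chromosome 3, 36619014 to 36626299, GRCm39), cyclin A2 of S and G2 phase, had 294, 321 and 297 CPM in Ctrl and 228, 249 and 241 in l-FA. All l-FA libraries were below all Ctrl libraries, with a log2 fold change of -0.35 (SE, the standard error, 0.047, edgeR adjusted p = 0.00118). Ccnb2, a B-type cyclin of mitosis, had 231, 228 and 219 CPM in Ctrl and 249.6, 259 and 262 in l-FA. It was above Ctrl in every l-FA library, with a log2 fold change of 0.18 (SE 0.031, edgeR adjusted p = 0.00304). Within a library, the ratio of Ccna2 to Ccnb2 in FPKM does not depend on scaling, and it was 0.328 ± 0.0165 in Ctrl against 0.227 ± 0.00636 in l-FA (SD, n = 3). The exact permutation test of this ratio gave p = 0.1, the smallest that 3 libraries against 3 allow. In all, 8 ratios of pairs of members were compared in this way, and 5 of them reached this p. After Benjamini-Hochberg adjustment over the 8 it was 0.16. No ratio could reach 0.05 with 3 libraries per group, so this test cannot decide whether any of the 8 ratios differed. The pairs were not picked by a stated rule, and their ratios rest on the same counts as the fold changes. The ratio of Ccnb2 to Ccnb1 was 7.40 ± 1.57 in Ctrl and 9.61 ± 2.22 in l-FA libraries (n = 3; exact permutation p = 0.3, adjusted 0.4).

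The phosphatase genes split as well. Cdc25b, which activates CDK1 at mitotic entry, was higher by 0.17 (SE 0.053, edgeR adjusted p = 0.0358), and the call was lost in 7 of 14 alternatives. Cdc25c, a phosphatase with the same substrate, was at 45.5, 45.7 and 45.9 CPM in Ctrl and at 41.3, 41.5 and 40.9 in l-FA libraries. The change was -0.15 (SE 0.038, edgeR adjusted p = 0.0166), lost in 5 of 14 alternatives. Cdk1 itself, with 137 ± 4.26 CPM in Ctrl against 132 ± 11.2 in l-FA (SD, n = 3), did not pass (edgeR adjusted p = 0.561).

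Of 6 mitotic kinases, 5 were lower in l-FA with TMM and 2, Bub1 and Bub1b, with total counts alone. Of all genes tested, 25.0% and 19.4% were lower on these scales. Bub1 (ENSMUSG00000027379; chromosome 2, 127643036 to 127673785), a kinase of the spindle checkpoint, had 126, 124 and 123 CPM in Ctrl and 96.3, 96.2 and 99.7 in l-FA. The groups were far apart for the spread within them, and the log2 fold change was -0.35 (SE 0.030, edgeR adjusted p = 0.000194). Bub1b, which encodes the checkpoint protein BUBR1, had 336, 347 and 334 CPM in Ctrl and 262, 270 and 286 in l-FA (log2 fold change -0.31, SE 0.038, edgeR adjusted p = 0.000709). Plk1, a kinase of mitotic entry and spindle assembly, fell by 0.22, and Aurka, the kinase of the centrosome, fell by 0.18. Aurkb, the kinase of the chromosomal passenger complex, fell by 0.19. Their edgeR adjusted p values were 0.0151, 0.00885 and 0.0131, and all 3 were lost with total counts alone. Ttk, which starts the checkpoint signal, had 60.5 ± 1.502 CPM in Ctrl against 62.5 ± 3.57 in l-FA (SD, n = 3) and did not pass (edgeR adjusted p = 0.49). The ratio of Bub1b to Ttk in FPKM was 6.76 ± 0.131 in Ctrl against 5.27 ± 0.360 in l-FA (SD, n = 3; exact permutation p = 0.1).

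The chromosomal passenger complex joins AURKB to INCENP, survivin and borealin. Cdca8, which encodes borealin, had 301, 314 and 314 CPM in Ctrl and 267, 268 and 270.1 in l-FA. It fell by 0.21 (SE 0.025, edgeR adjusted p = 0.000769) with no overlap between the groups. Incenp, the scaffold, and Birc5, survivin, did not pass, at log2 fold changes of 0.05 and -0.02. Subunits of this complex thus had different changes, and the ratio of Cdca8 to Birc5 in FPKM was 1.16 ± 0.0566 in Ctrl against 1.02 ± 0.0156 in l-FA (SD, n = 3; exact permutation p = 0.1).

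The largest called differences in both directions were in the kinetochore, within a single complex of 4 subunits. Ndc80 (ENSMUSG00000024056; chromosome 17, 71803095 to 71833852), the subunit that contacts microtubules, had 78.8, 74.7 and 68.7 CPM in Ctrl and 91.4, 101 and 97.9 in l-FA. It rose by 0.39 (SE 0.063, edgeR adjusted p = 0.00257). Nuf2 (ENSMUSG00000026683; chromosome 1, 169325503 to 169359033), which pairs with NDC80 in a dimer, had 83.8, 91.3 and 97.6 CPM in Ctrl and 64.9, 63.0 and 64.7 in l-FA. It fell by 0.50 (SE 0.059, edgeR adjusted p = 0.000667). For both genes the groups did not overlap, and both calls held in all 14 alternatives.

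The ratio of Ndc80 to Nuf2 in FPKM was 0.907, 0.788 and 0.678 in the Ctrl libraries and 1.36, 1.55 and 1.46 in the l-FA libraries. Nuf2 was the more abundant transcript per length in each Ctrl library and Ndc80 in each l-FA library (means 0.791 ± 0.115 and 1.46 ± 0.0963, SD, n = 3; exact permutation p = 0.1). The other dimer of the complex showed less. Spc24 fell by 0.14 at an adjusted p of 0.0494 in edgeR, and its call was lost in 10 of 14 alternatives. Spc25 did not pass and is described further down with the uneven genes. Ndc80 overlaps another listed gene, Gm55941, as Ccna2, Cdc25b, Cdca8, Nusap1, Prc1 and Cdc20 overlap Exosc9, Spef1, Airim, Oip5, Rccd1 and Elovl1, and whether counting used strand is not given in the sources used here.

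**Figure D2:**
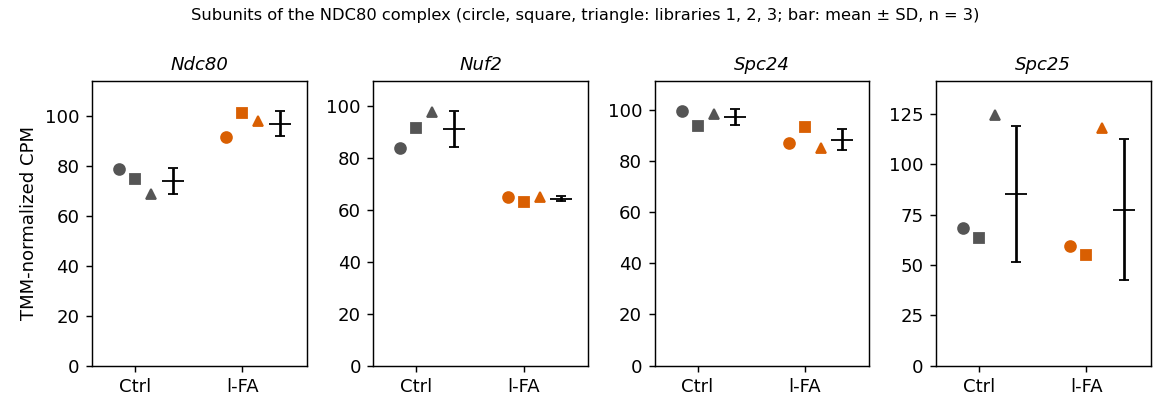
TMM-normalized CPM of the subunits Ndc80, Nuf2, Spc24 and Spc25 in each library, with the mean and SD of 3 libraries beside the points and axes from 0. Ndc80 is higher in every l-FA library and Nuf2 lower, Spc24 differs little, and Spc25 is high in library 3 of both groups.

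Cenpe and Cenpf, other kinetochore genes, were also higher. Cenpe (ENSMUSG00000045328; chromosome 3, 134918298 to 134979372), a motor that carries chromosomes to the spindle equator, had 62.6, 62.5 and 59.9 CPM in Ctrl and 75.6, 76.6 and 85.7 in l-FA (log2 fold change 0.36, SE 0.057, edgeR adjusted p = 0.00218). Cenpf (ENSMUSG00000026605; chromosome 1, 189372803 to 189420283), a large protein of the outer kinetochore, had 52.7, 50.3 and 51.0 CPM in Ctrl and 64.7, 64.4 and 67.2 in l-FA (log2 fold change 0.35, SE 0.039, edgeR adjusted p = 0.000557). Both were above Ctrl in every l-FA library. Cenpa, the histone H3 variant of centromeres, had a log2 fold change of 0.22 and did not pass (edgeR adjusted p = 0.0615, between 0.00899 and 0.182 over the alternatives).

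Of 5 genes of spindle motors and microtubule proteins, 2 were higher, 1 was lower and 2 did not pass. Of all genes tested, 25.5% were higher and 25.0% lower. Nusap1, which bundles spindle microtubules, rose by 0.16 (260.1, 258 and 251 CPM in Ctrl, 288, 287 and 286 in l-FA), and Hmmr, a centrosome and spindle pole protein, rose by 0.11 (146, 147 and 145 CPM, then 158, 157 and 156). These differences were small but wider than the spread in each group (adjusted p = 0.00136 and 0.00987 from edgeR). Kif2c, a kinesin that takes microtubules apart at centromeres, fell by 0.28 (SE 0.035, edgeR adjusted p = 0.000812). Kif11, the motor that separates the spindle poles, and Tpx2, the activator of Aurora A, did not pass, at -0.03 and -0.13.

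Of 6 central spindle and cytokinesis genes, 4 were higher and 1 lower, against 25.5% and 25.0% of all genes tested. With total counts alone 4 were higher and 0 lower, and only 2 were higher without Ctrl library 1 or without l-FA library 2. Kif23 and Racgap1 encode the 2 subunits of centralspindlin, the complex that bundles the midzone, and both rose by 0.17 (edgeR adjusted p = 0.0231 and 0.00255). Kif23 had 98.8, 107 and 106 CPM in Ctrl and 113, 122 and 116 in l-FA. Racgap1 had 199.5, 205 and 200.4 CPM in Ctrl and 222, 232 and 224 in l-FA. The ratio of Kif23 to Racgap1 in FPKM was 0.558 ± 0.0194 in Ctrl against 0.558 ± 0.00943 in l-FA (SD, n = 3; exact permutation p = 1.0).

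Prc1, which crosslinks midzone microtubules, rose by 0.13, and Anln, anillin of the contractile ring, by 0.12 (edgeR adjusted p = 0.0172 and 0.0271, lost in 3 and 6 of 14 alternatives). Ect2, the exchange factor that RACGAP1 activates at the midzone, went the other way. It had 145, 132 and 147 CPM in Ctrl and 125, 126 and 125 in l-FA, a change of -0.18 on the log2 scale (SE 0.044, edgeR adjusted p = 0.0162, lost in 4 of 14 alternatives). The ratio of Ect2 to Racgap1 in FPKM was 0.807 ± 0.0552 in Ctrl against 0.637 ± 0.0121 in l-FA (SD, n = 3; exact permutation p = 0.1). Kif20a, a kinesin needed for cytokinesis, did not pass at -0.03.

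Both members that act with the APC/C were lower, beside 25.0% of all genes tested. Cdc20, its activator, had 400.0, 425 and 425 CPM in Ctrl and 370.1, 371 and 378 in l-FA, a fall of 0.16 (SE 0.029, edgeR adjusted p = 0.00436) that did not pass with total counts alone (edgeR adjusted p = 0.0585). Ube2c (ENSMUSG00000001403; chromosome 2, 164611818 to 164620742), the ubiquitin-conjugating enzyme of the APC/C, had 172, 148 and 184 CPM in Ctrl and 132, 136 and 109.7 in l-FA. It fell by 0.42 with a larger error than its neighbours (SE 0.107, edgeR adjusted p = 0.0165).

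The remaining members are general marks of proliferating cells and 2 transcription factors. Mki67, which encodes Ki-67, had 250.3, 254 and 249.97 CPM in Ctrl and 216, 224 and 218 in l-FA, a fall of 0.20 (SE 0.025, edgeR adjusted p = 0.0008) that held in all 14 alternatives. Top2a, topoisomerase II alpha, had 762, 733 and 699 CPM in Ctrl and 774, 771 and 766 in l-FA, and it did not pass at 0.07 (edgeR adjusted p = 0.0946). Thus Mki67 and Top2a, both often read as proliferation marks, differed in sign. Mybl2, which encodes B-MYB, fell by 0.25 (118 ± 5.33 CPM in Ctrl, 99.5 ± 7.17 in l-FA, SD, n = 3; edgeR adjusted p = 0.0144).

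Some members varied more among libraries of a group than between groups. Ccnb1, cyclin B1, had 214, 137 and 148 CPM in Ctrl libraries 1, 2 and 3 and 186, 124 and 126 in l-FA libraries 1, 2 and 3. Library 1 was the high one in both groups, and the log2 fold change of -0.19 had a standard error of 0.22 (edgeR adjusted p = 0.508). Without Ctrl library 1 it was 0.03. A pseudogene copy, Ccnb1-ps, had 1397 to 1498 counts in every library, with no such difference.

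Spc25 had 68.4, 63.4 and 124 CPM in Ctrl libraries 1, 2 and 3 and 59.5, 55.0 and 118 in l-FA libraries 1, 2 and 3. Here library 3 was the high one in both groups, and the log2 fold change of -0.14 ran from -0.56 to 0.23 with 1 library left out. The ratio of Spc24 to Spc25 in FPKM was 1.65 ± 0.518 in Ctrl against 1.72 ± 0.677 in l-FA (SD, n = 3; exact permutation p = 0.9). Foxm1, the transcription factor of G2/M genes, had 21.8, 17.1 and 21.8 CPM in Ctrl and 42.3, 22.7 and 21.9 in l-FA. The log2 fold change of 0.52, the largest rise by size, did not pass (SE 0.27, edgeR adjusted p = 0.157) and was 0.16 without l-FA library 1. Over all 39 genes, 21 varied within Ctrl and 20 within l-FA by more than counting error passes in 5% of genes (chi-square over 5.99).

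**Figure D3:**
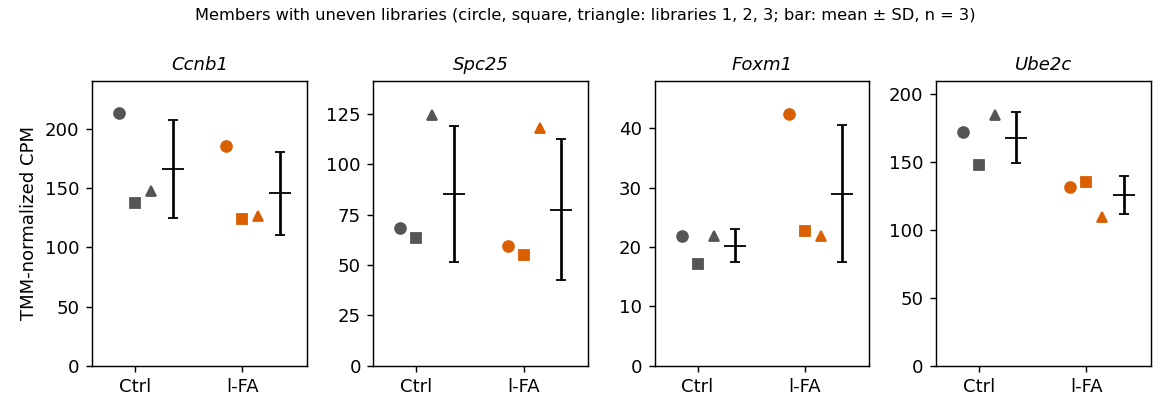
TMM-normalized CPM of Ccnb1, Spc25, Foxm1 and Ube2c in each library, with mean and SD of 3 libraries and axes from 0. Ccnb1 is high in library 1 and Spc25 in library 3 of both groups, Foxm1 is high in l-FA library 1 alone, and Ube2c is lower in every l-FA library.

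Members that rose tended to be long. The Spearman correlation of log2 fold change with gene length, as a description across genes that share their libraries, was 0.455 over the 39 genes, 0.152 over the 7648 deeply counted genes and 0.0579 over all genes tested. The median length was 9432 bp for members that were higher, 5828 bp for those that were lower and 7308 bp for those that did not pass. Among the deeply counted genes these medians were 7394.5, 5655 and 6819.5 bp, and over all genes tested 6118, 5204 and 4609 bp. Higher genes were thus longer than lower ones in these sets too. With each library's trend on length taken out, an alternative added after seeing the data, 9 members were higher and 16 lower, and 24 of the 27 calls were shared. Prc1, Anln and Spc24 lost their calls. Beyond this, the part of length in the results was not tested.

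**Figure D4:**
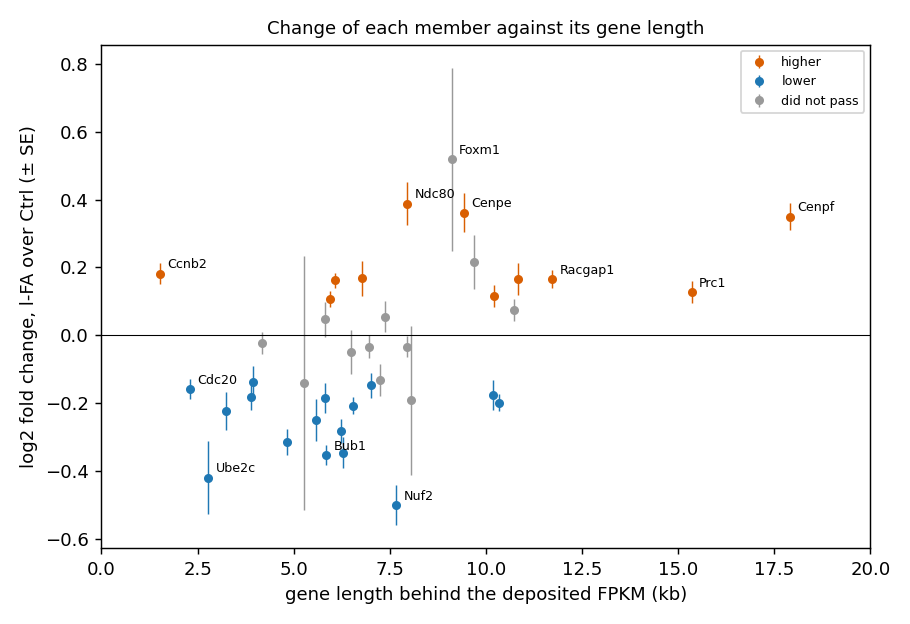
Log2 fold change of each of the 39 genes (l-FA over Ctrl, with its standard error) against gene length in kb, colored by call. Members that were higher lie mostly to the right (median 9432 bp) and members that were lower mostly to the left (median 5828 bp). Exceptions include Ccnb2, Hmmr, Nusap1 and Cdc25b, shorter genes that rose, and Mki67 and Ect2, longer genes that fell.

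Other genes of mitosis were examined with a list of 102 symbols, of which 101 were listed and tested. Of these 16 were higher (15.8%) and 33 lower (32.7%), against 25.5% and 25.0% of all genes tested and 25.3% and 32.8% of the deeply counted genes. Their median log2 fold change was -0.08. With total counts alone 27 were higher and 19 lower, against 31.2% and 19.4% of all genes tested on that scale. Wapl, which releases cohesin from chromosomes, had the largest fall, from a Ctrl mean of 102 ± 2.44 CPM to 54.4 ± 0.912 (SD, n = 3; log2 fold change -0.91, edgeR adjusted p = 1.175e-05). Kpna2, an importin alpha, fell by 0.61, Chek1, the checkpoint kinase that restrains CDC25, by 0.56, and Cdc25a, the phosphatase of S and G2 entry, by 0.47. Lin52 and Lin9, 2 subunits of the MuvB core, rose by 0.44 and 0.30. Nsl1, of the MIS12 kinetochore complex, rose by 0.38, and Sgo1, shugoshin that protects centromeric cohesion, by 0.30. By group, 5 of 9 spindle checkpoint genes and 6 of 17 APC/C genes were lower, with 1 and 3 higher. Of 10 genes of CDK1 inhibitors and phosphatase control 6 were lower and 1 higher. Of 19 condensin, cohesin and separase genes 7 were lower and 2 higher. Of 22 other kinetochore genes 4 were lower and 4 higher. Of 19 other spindle, centrosome and cytokinesis genes 4 were lower and 3 higher. Of 5 MuvB core genes 1 was lower and 2 higher. Differences between groups were not tested.

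Of 42 genes of DNA replication and of entry into S phase, 4 were higher (9.52%) and 19 lower (45.2%), beside the shares of all genes tested and of deeply counted genes given above. The difference between the replication list and the other mitosis genes was not tested. With total counts alone 11 were higher and 12 lower, against 31.2% and 19.4% of all genes tested on that scale. E2f1, the transcription factor of S phase entry, fell from 17.8 ± 1.69 to 10.1 ± 1.46 CPM (SD, n = 3; log2 fold change -0.82, edgeR adjusted p = 0.00205). Orc1, of the origin recognition complex, fell by 0.49 and Pola1, the catalytic subunit of DNA polymerase alpha, by 0.43. E2f2 rose by 0.26, Chaf1b, a histone chaperone, by 0.24, and Pola2, the accessory subunit of the same polymerase as Pola1, by 0.15.

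Among inhibitors of cyclin-dependent kinases, 2 of 5 tested were higher, against 25.5% of all genes tested. Cdkn1c, which encodes p57 and marks quiescent HSCs, had 7.19, 7.61 and 7.58 CPM in Ctrl and 11.7, 11.3 and 11.4 in l-FA, a rise of 0.62 (SE 0.073, edgeR adjusted p = 0.000692). Cdkn2c, p18, rose by 0.22 (edgeR adjusted p = 0.0159). Cdkn1a, Cdkn1b and Cdkn2d did not pass, at 0.21, 0.04 and 0.25. The fall of granulocyte and monocyte progenitor markers given above moved with all of these comparisons, and its part in them was not tested.

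**Figure D5:**
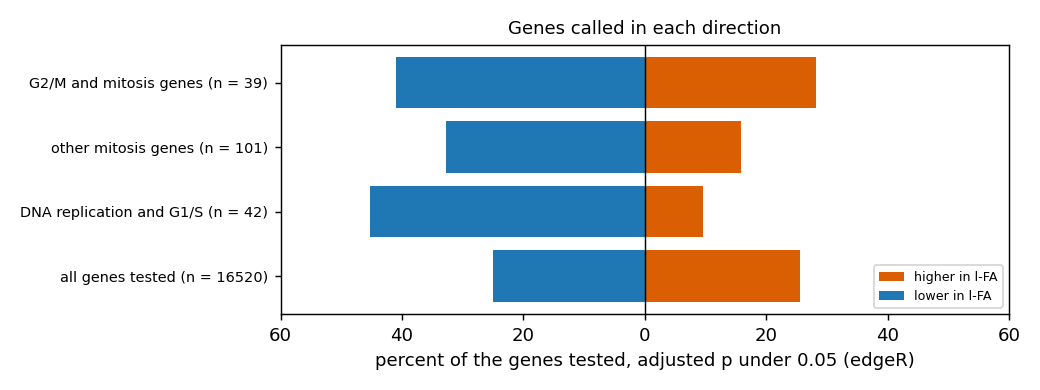
The percent of genes called higher (right, orange) and lower (left, blue) in l-FA among the 39 genes, the other mitosis genes, the replication genes and all genes tested. The bars of the 39 genes reach 28.2% higher and 41% lower, and those of all genes tested 25.5% and 25.0%. The deeply counted genes, which have no bar, were 25.3% higher and 32.8% lower. The replication genes have the smallest share of higher genes, 9.52%. All bars are with TMM, and the split moved with total counts alone.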

How the data were processed

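The deposited table gives raw counts of each gene by library. The FPKM values beside them were made by the authors from those counts, gene length and library total. The submitters' processing notes name HISAT2, SAMtools 1.3.1, StringTie, edgeR and GRCm39, without their roles, and the paper's methods name DESeq2. Coordinates of genes are those of the deposited table, and promoters come from RefSeq on GRCm38.p6. Gene lengths were recovered from count and FPKM. Strand use in counting is not given in the sources used here, and 15 of the 39 genes overlap another listed gene.

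The quasi-likelihood test of edgeR 4.0.16 was run in R 4.3.3 (TMM, filterByExpr, glmQLFit, glmQLFTest) with Benjamini-Hochberg adjustment over 16520 of 27198 genes, on 3 Ctrl against 3 l-FA libraries grouped by their labels. Standard errors are the size of a log2 fold change over the root of F. The code was tested on simulated counts. Since the cDNA was amplified and carries no molecular identifiers, read counts are not counts of molecules.

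The members and lists were chosen with earlier results of these data known. Genes named are all 39 members, up to 4 (other mitosis genes) or 3 (replication) per direction with the largest called change at a mean of at least 1 CPM, every tested CDK inhibitor, and leading markers. HSC markers outside this rule, and Ccnb1-ps, were named after their values were seen. Alternatives were DESeq2 1.42.0, RLE, upper-quartile and total-count scaling, no filter, a minimum of 10 counts per library, a replicate block, leaving out single libraries, and a length trend removed.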

Additional observations from a re-analysis of the deposited data

How the results depend on the processing

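Of the 27 members called, 15 were called in all 14 alternatives (7 higher, 8 lower), 12 lost their call in at least 1, and 6 members that had not passed did so in at least 1. With total counts alone, 9 members were lower, 27 other mitosis genes were higher and 19 lower, 11 replication genes were higher and 12 lower, and the median of the members turned from -0.05 to 0.02885. This scaling moved the median of all genes by 0.0785, and 31.2% of all genes tested were then higher and 19.4% lower. With upper-quartile scaling, 7 replication genes were higher and the members' median was -0.0257. With 1 library left out, the median ran from -0.0767 (without Ctrl library 2) to -0.006111 (without l-FA library 1), and it was -0.0756 without l-FA library 3 and -0.0318 without l-FA library 2. The other counts over all 39 members and over the other mitosis and replication lists stayed within 1.5 times under the alternatives run, and no member passed 2-fold in any. Counts by role moved more. Of the 4 central spindle and cytokinesis genes that were higher, 2 were so without Ctrl library 1, without l-FA library 2, with the replicate block and with the length trend removed, and 0 in place of 1 were lower without any single l-FA library. Of the 2 lower kinetochore genes, Nuf2 kept its call and Spc24 lost it with upper-quartile or total-count scaling, no filter and the stricter filter. The call of Spc24 was also lost with the replicate block or the length trend removed. It was lost as well without Ctrl library 1 or 3 or l-FA library 1 or 3. With total counts alone, 2 of the 5 lower mitotic kinases and 1 of the 2 lower APC/C genes were still lower. Leaving out single libraries cost 8 members their call, at edgeR adjusted p values of 0.0506 to 0.183. They were Aurkb (without l-FA library 2 or 3), Cdc25c and Ect2 (any l-FA library), Cdc25b (any Ctrl library, or l-FA library 2 or 3), Anln (Ctrl library 2 or 3, or l-FA library 2 or 3), Kif23 (Ctrl library 1 or l-FA library 2), Prc1 (Ctrl library 1) and Spc24 (library 1 or 3 of either group). Apart from fewer libraries and the shift of scale, what caused these moves was not tested.

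A replicate block gave 8 members higher and 15 lower, 21 of them shared with the 27 calls. Ccnb1 (adjusted p = 0.0127 from edgeR, between 0.0127 and 0.918 over the alternatives) and Spc25 (0.0458, between 0.0458 and 0.964) passed only with the block, and Ube2c did not pass with it (0.0536). Same-numbered libraries did not deviate together over all genes (correlations 0.00393, -0.0106 and -0.0783). A correlation over all genes says little of differences shared by few genes, and Ccnb1 and Spc25 followed the library number in both groups. The labels state no pairing beyond the shared number, so the main test used none.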
